A study of Mus musculus with 9 samples.

Results

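The expressed long noncoding RNA genes of RAW264.7 cells, a mouse macrophage line, were described here. A gene belonged to the set if its deposited annotation called it lincRNA, lncRNA, antisense, processed transcript, sense intronic, sense overlapping or bidirectional promoter lncRNA, if it was at least 200 bases long, and if its FPKM was at least 2 in all 3 libraries of at least 1 group. FPKM is a read count divided by gene length and library size. The members were thus chosen by their deposited FPKM values, which are the values described below, so their presence at this level is no finding. There were 201 such genes among 9576 noncoding genes of these types and length and 54532 genes in all, against 8723 protein-coding genes at the same threshold.

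Total RNA of WT RAW264.7 cells was enriched for poly(A) RNA and sequenced in 3 groups of 3 libraries. Control cells were untreated, LPS cells received 1 μg/ml of lipopolysaccharide, a component of the bacterial outer membrane, and LPS + G-CDs cells received the same dose of LPS together with 400 μg/ml of G-CDs, carbon dots prepared from roasted Glycyrrhiza, the treated groups for 6 h. All libraries came from a single cell line, no group received G-CDs alone, and the sample labels give LPS alone as the treatment of the third group, whose titles name G-CDs. Nothing in the labels says that the 3 libraries of a group came from separate experiments, so p-values measure the spread between these libraries, which may be technical.

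Long noncoding RNAs are transcripts that do not encode a protein of known function. Some hold the precursors of microRNAs or, in their introns, of small nucleolar RNAs that guide the modification of ribosomal RNA, others build nuclear bodies, and many are transcribed beside or opposite a protein-coding gene. In macrophages, LPS acts through Toll-like receptor 4 to switch on NF-κB and interferon genes, and several noncoding genes near these genes are known to be induced as well.

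By type the set held 82 lincRNA, 62 antisense, 45 processed transcript, 7 sense intronic and 5 bidirectional promoter genes. The annotation's label was contradicted for some of them. RefSeq listed 120 members as lncRNA and 12 as protein-coding, among them Ifi30, a lysosomal thiol reductase, and Cct6a, a subunit of the chaperonin that folds actin and tubulin, and 67 members had no RefSeq match. The span of 76 members overlapped a protein-coding gene on the opposite strand and that of 17 overlapped such a gene on the same strand, while 108 overlapped none. The libraries were made with random primers and the sources used here do not say that strand was kept, so reads of a member cannot be told apart from those of a gene that overlaps it. No exonic base of 134 members lay in a coding gene's exons, and 34 members started within 1000 bases of a protein-coding gene transcribed in the other direction.

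Known microRNAs lie within the span and on the strand of 5 members, and sequences of each are shown. For the 4 members on the list of microRNA hosts, the microRNA is the known product of the host gene. The host transcripts were measured, and the mature microRNAs were not. The capitals mark the seed, bases 2 to 8, by which a microRNA pairs with its targets, and all sequences are from RefSeq on GRCm38.p6. Mir155hg (chr16:84703167-84715245, plus strand) and Mir22hg (chr11:75461539-75466676, plus strand) rose with LPS, as described further on, and each holds 1 hairpin with 2 mature forms.
miR-155-5p: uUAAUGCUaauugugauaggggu
miR-155-3p: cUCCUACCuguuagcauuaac
miR-22-5p: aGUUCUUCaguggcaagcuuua
miR-22-3p: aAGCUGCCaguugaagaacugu

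Snhg20 (chr11:117076008-117078955, plus strand), from the list of small nucleolar RNA hosts, holds 1 hairpin with 2 mature forms.
miR-6516-5p: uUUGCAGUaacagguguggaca
miR-6516-3p: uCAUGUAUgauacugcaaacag

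Mir17hg (chr14:115042879-115046727, plus strand) holds 6 hairpins with 11 mature forms, and 6 of these forms are shown for their shared or differing seeds. Within it miR-17-5p and miR-20a-5p share a seed, as do miR-19a-3p and miR-19b-3p, and the seeds of miR-18a-5p and miR-92a-3p were not shared with any other form listed for these hosts. Mir142hg (chr11:87755577-87757270, plus strand) holds the hematopoietic miR-142, whose mature forms on its own strand have different seeds.
miR-17-5p: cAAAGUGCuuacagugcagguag
miR-20a-5p: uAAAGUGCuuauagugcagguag
miR-19a-3p: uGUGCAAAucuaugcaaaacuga
miR-19b-3p: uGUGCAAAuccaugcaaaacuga
miR-18a-5p: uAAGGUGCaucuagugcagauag
miR-92a-3p: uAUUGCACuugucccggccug
miR-142a-5p: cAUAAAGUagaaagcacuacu
miR-142a-3p: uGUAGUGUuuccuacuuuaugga

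RefSeq promoters, 250 bases before to 50 after the start, were found for 109 members (131 promoters). Both strands were searched for the antioxidant response element core TGACNNNGC, for the AP-1 site TGANTCA, for the interferon response core GAAA, any 2 bases, GAAA and for the κB site, motifs that can overlap each other. TGACNNNGC was in 15.3% of the members' promoters and in 12.4% of all 32851, TGANTCA in 10.7% and 7.81%, the interferon response core in 3.82% and 3.44%, and the κB site in 3.82% and 4.51%. Promoters of 3 members are shown because these members changed with LPS, start at or near the RefSeq start and hold a match, which is in capitals. Ptgs2os2, which rose with LPS, had 1 match to the interferon response core (chr1:150164899-150165198, minus strand). The members 2210408F21Rik (chr6:31220101-31220400, plus strand) and Gm17586 (chr11:120633500-120633799, plus strand), which fell with LPS, had 2 matches and 1 match to TGACNNNGC, respectively. A match describes the letters of the window only.
Ptgs2os2: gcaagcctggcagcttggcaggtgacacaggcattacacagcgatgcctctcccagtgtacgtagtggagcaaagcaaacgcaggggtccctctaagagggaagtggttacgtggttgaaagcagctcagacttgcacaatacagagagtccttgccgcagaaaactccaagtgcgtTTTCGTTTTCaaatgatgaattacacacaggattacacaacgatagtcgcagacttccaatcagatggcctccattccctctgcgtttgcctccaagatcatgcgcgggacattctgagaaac
2210408F21Rik: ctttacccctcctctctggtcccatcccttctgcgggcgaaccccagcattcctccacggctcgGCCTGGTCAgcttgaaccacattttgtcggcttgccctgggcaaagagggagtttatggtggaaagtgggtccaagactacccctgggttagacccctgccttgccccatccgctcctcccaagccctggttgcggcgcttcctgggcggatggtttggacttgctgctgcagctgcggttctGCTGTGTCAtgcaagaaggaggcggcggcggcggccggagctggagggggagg
Gm17586: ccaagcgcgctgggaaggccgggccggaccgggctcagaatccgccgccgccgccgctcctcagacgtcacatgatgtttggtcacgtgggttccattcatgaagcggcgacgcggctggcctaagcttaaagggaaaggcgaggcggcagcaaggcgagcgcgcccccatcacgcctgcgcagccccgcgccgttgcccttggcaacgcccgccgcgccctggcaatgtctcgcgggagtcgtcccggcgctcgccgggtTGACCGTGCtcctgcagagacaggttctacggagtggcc

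The libraries held 14752400 to 17312255 reads on genes, recovered from the deposited FPKM. The macrophage identity was checked first. Of 8 macrophage markers, 7 were at an FPKM of at least 1 in every library and Mertk was at 0 in all, and every marker of T cells, B cells, fibroblasts, epithelium, neutrophils, hepatocytes and erythroid cells stayed under 1. Replicates agreed most closely in the LPS group, where the median SD of a member on log2(FPKM + 1) was 0.14, against 0.30 in control and 0.32 in LPS + G-CDs. Over all 11585 genes tested these medians were 0.09, 0.24 and 0.26.

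Noncoding members made up little of the library. They held 0.429% to 0.753% of the reads on genes, and a member had a median of 84 to 110 reads per library. The mean FPKM of a member over the 9 libraries had a median of 4.14, against 10.8 for protein-coding genes at the threshold, and their median lengths were 1475 and 4326 bases. The mean was over 50 for 6 members and under 5 for 118. Together the 12 members with the highest mean held 41.5% to 54.9% of the members' summed FPKM.

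The 12 highest were Ifi30, Cct6a, Malat1, Gm26917, Gm42047, Gm10076, 2410006H16Rik, Gm17201, 1110038B12Rik, 2900097C17Rik, Gas5 and Mir155hg. Malat1, a nuclear RNA of splicing speckles, stood at 226, 165 and 76.7 FPKM in control, at 135, 125 and 91.2 in LPS and at 133, 65.1 and 58.3 in LPS + G-CDs. Its groups overlapped and its replicates spread widely, with no call in any comparison. Gas5, a host of small nucleolar RNAs, was between 23.1 and 40.1 in every library. The gene 2900097C17Rik, the mouse Norad locus whose RNA binds Pumilio proteins, was at 55.2 in control replicate 1 and between 30.0 and 39.1 elsewhere. Of its 50-base words, 39.5% occurred in other genes, as did 72.9% of those of Gm42047 and 69.9% of those of Gm10076, so the levels of these 3 genes are uncertain. RefSeq types Gm10076 as a pseudogene. Of the exonic bases of Gm17201, 59.5% lay in coding exons.

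In all 3 groups, 101 members were at the threshold. Another 27 were at it in both LPS-treated groups only, 35 in LPS only, 18 in control only, 13 in control and LPS, 4 in control and LPS + G-CDs and 3 in LPS + G-CDs only. For a member that was chosen through only 1 of the groups compared, the choice itself leaned toward a higher value there, so its difference is described without a test. Tests were read for members that were at the threshold in both compared groups or in the group outside the comparison, 148 members for LPS against control, 163 for LPS + G-CDs against LPS and 180 for LPS + G-CDs against control. Where the outside group had also received LPS, this choice still leaned toward members that are high with LPS, so counts over the 101 members are given beside it. The p-values of such members against control carry the same lean. Of the 27 at the threshold in both LPS-treated groups only, 17 rose with LPS. Mir155hg, Gm41361, Gm20234, Gm20559 and Gm17749 are among these 27. The lowest members inside the threshold were Gm26628, D430020J02Rik and Trmt61b, with 2.001, 2.012 and 2.073 as the lowest library of their best group, and the nearest noncoding genes outside were Gm16201, Gm16174 and Gm15265 with 1.983, 1.982 and 1.978. There were 32 members with such a value under 2.5 and 69 noncoding genes from 1.5 to under 2.

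The first comparison asked which noncoding genes changed with LPS. Among the 148 members read, 33 rose and 19 fell at an adjusted p under 0.05 (limma on log2(FPKM + 1), Benjamini-Hochberg over all genes), where 15.8% of all genes tested rose and 15.6% fell. Of the protein-coding genes chosen by the same rule, 18.1% rose and 15.5% fell, against 22.3% and 12.8% of the members. Of the 101 members at the threshold in all groups, 15 rose (14.9%) and 16 fell (15.8%), shares near those of all genes. Their median difference was -0.01, against 0.02 for all genes. The split depended on scaling, as it did for all 11585 genes tested, of which 1827 rose and 1803 fell in the main fit. With TPM, under which the median difference of all genes was -0.23, 26 members rose and 31 fell, beside 1003 and 3059 of all genes. With the reads on genes as library size 26 rose and 35 fell, beside 1146 and 3133.

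**Figure D1:**
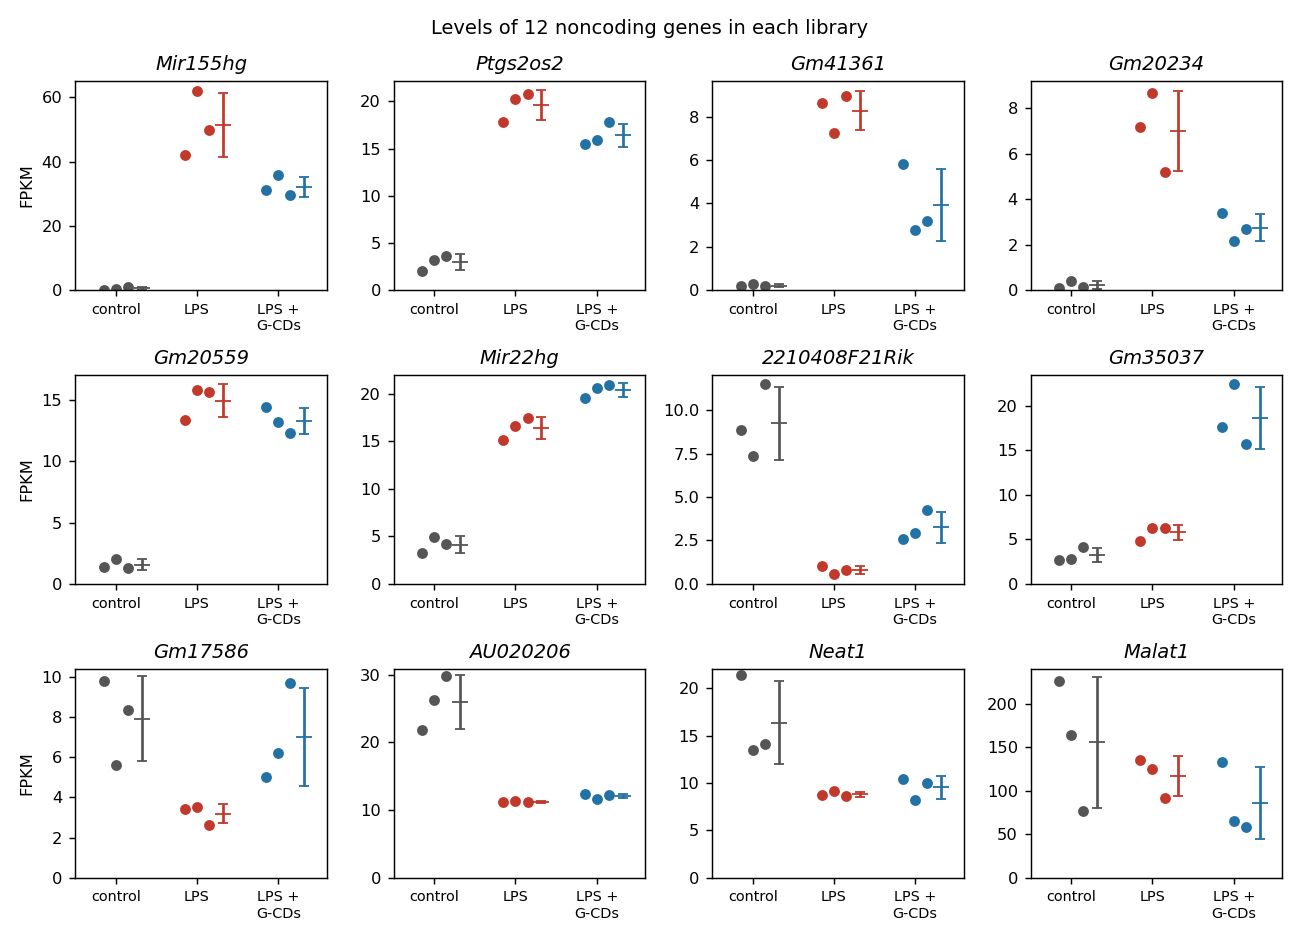
FPKM (vertical axes, linear from 0) of 12 noncoding genes in each of the 9 libraries, with points for libraries and bars for the mean ± SD of the 3 libraries of a group. Mir155hg, Ptgs2os2, Gm41361, Gm20234, Gm20559 and Mir22hg lay higher in every LPS library than in every control library, 2210408F21Rik and AU020206 lower, and Gm35037 reached 15.8 to 22.5 in LPS + G-CDs against 4.86 to 6.30 in LPS.

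Of the 4 microRNA host genes among the members, Mir155hg and Mir22hg rose with LPS and Mir142hg and Mir17hg were not called, where 15.8% of all genes rose and 15.6% fell. Mir155hg was at 0.112, 0.410 and 1.06 FPKM in control, at 42.2, 62.0 and 49.8 in LPS and at 31.3, 35.7 and 29.6 in LPS + G-CDs. The LPS-treated libraries lay far above control, and those with G-CDs lay below those with LPS alone without overlap. LPS against control gave a difference of 5.13 on log2(FPKM + 1) with an SE of 0.23 (limma, adjusted p = 5.9e-07). It rested on 3, 10 and 27 reads in control and 836 to 1227 in LPS. Mir155hg was at the threshold in the LPS-treated groups only, so its choice leaned toward a rise. Mir22hg was at 3.27, 4.98 and 4.17 in control and at 15.2, 16.6 and 17.4 in LPS, a rise of 1.77 (SE 0.14, limma adjusted p = 1.8e-05). Its nearest coding gene Tlcd2 overlaps it on the same strand and also rose, by 0.93 (limma adjusted p = 0.0026). Mir142hg, at 13.3 to 19.2 in control and 15.3 to 22.3 in LPS, and Mir17hg, at 8.85 to 11.04 and 8.32 to 9.02, were not called, with differences of 0.27 and -0.19. The list held 18 microRNA host symbols.

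The other large rises were set beside the nearest coding gene of each, whatever that gene is known for. Ptgs2os2 (chr1:150159043-150164948, minus strand) starts 64917 bases from the start of Ptgs2, which encodes cyclooxygenase-2. It was at 2.08, 3.16 and 3.67 FPKM in control, at 17.8, 20.2 and 20.8 in LPS and at 15.5, 15.9 and 17.8 in LPS + G-CDs, with control apart from both. The rise with LPS was 2.40 (SE 0.16, limma adjusted p = 7.7e-06), and that of Ptgs2 was 8.89.

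Gm41361 (chr15:80012331-80042457, plus strand) lies opposite Pdgfb, a growth factor chain. It went from 0.170, 0.280 and 0.179 in control, or 2 to 3 reads, to 8.63, 7.25 and 8.97 with LPS, a rise of 2.94 (SE 0.21, limma adjusted p = 1.2e-05) beside a rise of 5.72 for Pdgfb. Adding 1 to FPKM compresses the change of such a low gene, and with 0.1 added in its place the differences were 4.77 for Gm41361 and 5.92 for Pdgfb. Gm20234 (chr11:83065752-83071246, minus strand), opposite the Schlafen gene Slfn2, went from 0.0744, 0.410 and 0.157 to 7.16, 8.69 and 5.18, a rise of 2.71 (SE 0.20, limma adjusted p = 1.4e-05) beside 4.48 for Slfn2. With 0.1 added these were 4.62 and 4.56, so the order of the pair depended on the added constant. Of its 50-base words, 18.0% occur in other genes. Gm13822, whose start lies 37 bases from that of Oasl1, an interferon-induced gene, went from 6.32, 3.06 and 5.36 to 21.7, 20.52 and 25.1, a rise of 2.03 (SE 0.32, limma adjusted p = 0.0015) beside 5.01 for Oasl1. Coding exons cover 10.98% of its exonic bases, and Oasl1 itself was at 351, 338 and 345 FPKM in LPS. How much of the rise of Gm13822 comes from reads of Oasl1 was not tested.

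Gm20559 (chr6:3333194-3346128, minus strand), 26129 bases from the interferon-induced Samd9l, was at 1.39, 2.07 and 1.26 in control and at 13.4, 15.8 and 15.6 in LPS, a rise of 2.64 (limma adjusted p = 1.9e-06) beside 2.63 for Samd9l. The gene 4933432I03Rik rose by 1.85 and Gm17749 by 1.83, and their nearest coding genes Kctd12 and Ankdd1a rose by 1.95 and 0.99. With 0.1 added to FPKM the members differed by 2.86 and 2.26 and these neighbors by 2.43 and 2.08. In Gm20559, 4933432I03Rik and Gm17749 the LPS libraries lay above the control libraries without overlap. Among the members at the threshold in all groups, 4833427F10Rik rose by 1.65, 4930430E12Rik by 1.59 and Tug1, a widely expressed nuclear and cytoplasmic RNA, by 0.69 (limma adjusted p = 0.042). The call of Tug1 was lost in 10 of 20 alternatives, with no filter, with TPM, with the reads on genes as library size, with voom and without control replicate 1 or 3, any LPS library or LPS + G-CDs replicate 2, with an adjusted p of up to 0.31 (limma). These 3 were chosen after their values were seen or from the list of nuclear RNAs.

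Falls with LPS were led by 2210408F21Rik (chr6:31220351-31337404, plus strand), a lncRNA by RefSeq, whose promoter is shown above. It was at 8.86, 7.37 and 11.5 FPKM in control, at 1.05, 0.572 and 0.801 in LPS and at 2.56, 2.95 and 4.23 in LPS + G-CDs, 3 groups without overlap. The difference with LPS was -2.49 (SE 0.20, limma adjusted p = 2.3e-05). It rested on 302 to 492 reads in control and 19 to 35 in LPS. Its nearest coding gene Mkln1, 61331 bases away, was not called (-0.13).

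Ifi30, which RefSeq types as protein-coding, went from 271, 219 and 325 in control to 77.7, 71.8 and 80.6 with LPS, a difference of -1.79 (SE 0.23, limma adjusted p = 0.00041). Its nearest coding gene Pik3r2, 1513 bases away, also fell, with a difference of -1.54 (limma adjusted p = 8.4e-06). AU020206 fell from 21.9, 26.2 and 29.8 to 11.1, 11.4 and 11.2, by -1.13 on the log2 scale (limma adjusted p = 0.00017), while its nearest coding gene Akap13, an A-kinase anchoring protein, rose by 1.75. Gm17586, which starts 168 bases from Mafg, a small Maf transcription factor, went from 9.81, 5.63 and 8.35 to 3.43, 3.51 and 2.65, a difference of -1.07 (limma adjusted p = 0.0099). Mafg itself differed by 0.30 and was not called. Gm28875, Gm49172 and Tmem250-ps had differences of -1.34, -1.26 and -1.13, all called, and Tmem250-ps is protein-coding by RefSeq. The nearest coding genes of Gm28875 and Gm49172, Syne3 and Ano6, differed by -0.85 and -0.33 and were not called. Nacc2, that of Tmem250-ps, was not tested. The call of Gm28875 was lost without LPS replicate 1, with an adjusted p of up to 0.055 over the 20 alternatives (limma). That of Gm49172 was lost without control replicate 1 or 3 or LPS replicate 2, with an adjusted p of up to 0.071 (limma). For each of these members the control and LPS libraries did not overlap.

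Of 5 nuclear and chromatin RNAs among the members, Tug1 rose and Neat1 fell with LPS, and of 12 small nucleolar RNA hosts Snhg5 fell, where 15.8% of all genes rose and 15.6% fell. Neat1, the scaffold of paraspeckles, was at 21.4, 13.5 and 14.1 FPKM in control, at 8.70, 9.12 and 8.61 in LPS and at 10.4, 8.18 and 10.02 in LPS + G-CDs. It fell by 0.80 with LPS (limma adjusted p = 0.0081), and its control libraries lay above all 6 others. Firre, a nuclear RNA of the X chromosome, was between 3.49 and 7.82 in all libraries with no call. The lists held 22 nuclear and chromatin RNAs and 20 host genes of small nucleolar RNAs. Snhg5 went from 27.1, 19.04 and 22.9 to 10.6, 11.4 and 11.9 and fell by 0.95 (limma adjusted p = 0.0064). The other 11 were not called with LPS, Snhg1 for example at 15.3 to 25.5 in control and 22.004 to 25.1 in LPS. Snhg20 had a difference of -0.78 (limma adjusted p = 0.055), and the median difference of the 12 was 0.20. Of 17 RNAs linked to LPS or macrophages, 5 were members, and Ptgs2os2 and Mir155hg rose, Neat1 fell, and Gas5 and Malat1 were not called. Of the 29 other named RNAs listed, Crnde, Peg13 and Dancr were members, and neither of the 2 that were tested was called.

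The members chosen through only 1 of the compared groups are given as values. Of the 35 at the threshold in LPS only, 32 were higher in LPS than in control, and the median difference of all 35 was 0.67. Gm28913 (chr1:131263330-131266749, plus strand), opposite Ikbke, the gene of the kinase IKKε, was at 0.293, 0.968 and 0.463 FPKM in control and at 15.5, 15.7 and 14.0 in LPS. Gm28914, opposite the same gene, was at 0.320, 0.704 and 0 against 3.04, 3.15 and 2.99, and Ikbke itself rose by 3.21 (limma adjusted p = 7e-08). Coding exons cover 17.9% of the exonic bases of Gm28913 and 23.8% of those of Gm28914. Gm34643, 22520 bases from Acod1, which encodes the enzyme that makes itaconate, was at 0.256, 0.744 and 0.638 against 4.11, 4.46 and 3.43. D330050G23Rik and Gm26809 differed by 1.73 and 1.60. All 18 members at the threshold in control only were lower in LPS. Ttc39aos1 went from 13.5, 12.3 and 6.55 to 1.43, 1.69 and 1.60. Gm45606, opposite the amino acid transporter gene Slc43a2, went from 2.17, 2.37 and 3.36 to 0.181, 0.0777 and 0.320, beside a difference of -2.72 for Slc43a2. Coding exons cover 33.0% of the exonic bases of Gm45606, and the part of Slc43a2 reads in its values was not tested. 2310040G24Rik, AU022793 and 9230111E07Rik differed by -1.62, -1.55 and -1.24.

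**Figure D2:**
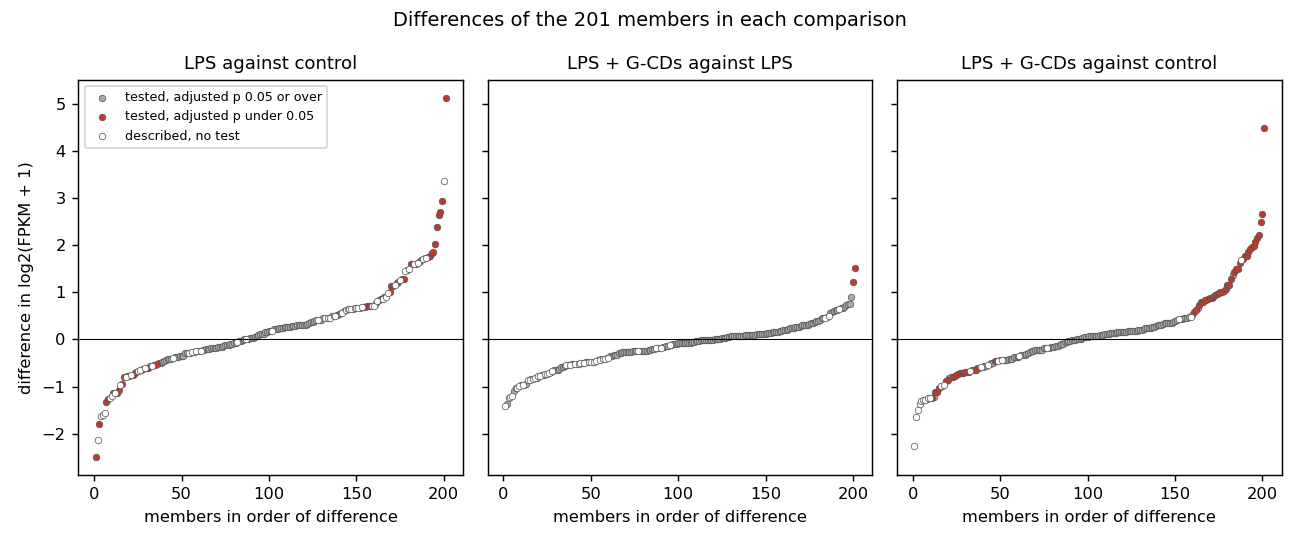
Difference in log2(FPKM + 1) of the 201 members in order of size (horizontal axis) in the 3 comparisons, red for tested members with an adjusted p under 0.05, gray for the other tested members and open for members described without a test. LPS against control had 33 rises and 19 falls, where 15.8% of all genes rose and 15.6% fell, and LPS + G-CDs against LPS had 2 rises, where 0.25% of all genes rose.

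The second comparison asked which noncoding genes differed when G-CDs were added to LPS. Of 163 members read, 2 rose and 0 fell at an adjusted p under 0.05, where 0.25% of all genes rose and 0.242% fell, and 0.26% and 0.225% of the protein-coding genes chosen by the same rule. At an unadjusted p under 0.05 there were 30 members (18.4%), against 15.2% of all genes, and voom on the recovered reads called 1 rise and 0 falls. The members' median difference was -0.01, against 0.02 for all genes. At the paper's threshold, an unadjusted p under 0.01 and over 1.5-fold, 3 members were higher and 8 lower, where 1.24% of all genes were higher and 1.24% lower. Over the 101 members at the threshold in all groups 2 were higher and 2 lower, and 3 of the 8 lower members were among the 13 at the threshold in control and LPS but not in LPS + G-CDs, all of which lay below 0. In 47 members (28.8%) the groups did not overlap, against 27.9% of all genes.

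Gm35037 (chr7:3451357-3475020, plus strand), a lncRNA by RefSeq, rose. It was at 2.74, 2.79 and 4.11 FPKM in control, at 4.86, 6.30 and 6.25 in LPS and at 17.6, 22.5 and 15.8 in LPS + G-CDs, without overlap between the 3 groups. G-CDs with LPS against LPS gave 1.52 (SE 0.18, limma adjusted p = 0.01), resting on 34 to 46 reads in LPS and 112 to 189 with G-CDs. Its nearest coding gene Tarm1, a receptor of myeloid cells, was too low to be tested, at 0.280 to 0.333 in LPS and 0.569 to 1.34 with G-CDs. The second was 2210408F21Rik, which rose by 1.22 (SE 0.20, limma adjusted p = 0.043) from 0.572 to 1.05 in LPS to 2.56 to 4.23 with G-CDs, and so lay between LPS and control. Neither call held without LPS replicate 1, 2 or 3 or with replicate 2 of the LPS + G-CDs group omitted, and that of 2210408F21Rik was also lost when control replicate 1 or 2 or the third LPS + G-CDs library was omitted, with no filter, with the 6 libraries alone and with voom. The call of Gm35037 was lost with TPM. Over all 20 alternatives the adjusted p ranged from 0.0084 to 0.077 for Gm35037 and from 0.013 to 0.25 for 2210408F21Rik, and the direction did not turn in any of them.

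The third member higher with G-CDs at the paper's threshold was Gm17586, at 3.43, 3.51 and 2.65 in LPS and 5.03, 6.23 and 9.72 with G-CDs, a difference of 0.89 (limma adjusted p = 0.2). The 8 lower members at that threshold, named for passing it, were Gm44200, Gm20234, Gm43351, Gm11832, Gm41361, Gm17024, 1700058P15Rik and Gm30934, with differences of -1.37 to -0.81 and limma adjusted p-values of 0.071 to 0.21. Gm20234 was at 7.16, 8.69 and 5.18 in LPS and at 3.38, 2.18 and 2.68 with G-CDs, and Gm41361 at 8.63, 7.25 and 8.97 against 5.83, 2.78 and 3.17, each without overlap. Their opposite-strand genes Slfn2 and Pdgfb differed by -0.05 and -0.35 and were not called. Mir155hg was lower by -0.64 without overlap (limma adjusted p = 0.29), and Mir22hg higher by 0.30, at 19.6, 20.6 and 20.9 (limma adjusted p = 0.33). Of the 25 list members read, limma called 0, and 4 had an unadjusted p under 0.05, where 15.2% of all genes had one.

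For this comparison 38 members were described only. The 3 at the threshold in LPS + G-CDs only, Gm49207, AC127341.3 and Gm11772, were higher there than in LPS, by 0.47 to 0.65. AC127341.3 was at 1.91, 1.82 and 1.90 in LPS and 2.23, 3.03 and 4.09 with G-CDs, and its start lies 21 bases from that of Hmga1, an architectural chromatin protein. The 35 at the threshold in LPS only were lower with G-CDs, by a median of -0.55, which the choice of members fixed in part. Gm28913 was at 15.5, 15.7 and 14.0 in LPS and at 11.2, 5.95 and 1.56 with G-CDs. Gm37592 was at 3.49, 4.27 and 4.43 against 2.41, 1.13 and 0.382, and Gm15777 at 2.64, 2.81 and 3.14 against 1.82, 0.481 and 0.163. Coding exons cover 44.8% of the exonic bases of Gm37592. CT030636.1 and Gm47950 differed by -0.97 and -0.84.

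The 3 libraries of the LPS + G-CDs group differed in these members. Their median FPKM was 3.36, 3.41 and 3.14 in the LPS libraries and 3.05, 1.84 and 1.05 in LPS + G-CDs replicates 1, 2 and 3. Replicate 1 was the highest of its group for 31 of the 35 members and replicate 3 the lowest for 29, and 30, 15 and 1 of them reached an FPKM of 2 in replicates 1, 2 and 3. These members were chosen for missing that level in at least 1 library of this group, which fixes part of the spread. Of the 166 other members, replicate 1 was the highest for 66 and replicate 3 the lowest for 51. The median deviation from the group mean in replicates 1 and 3 was 0.59 and -0.51 over the 35 members, against 0.04 and 0.0019 over all 201. Over all genes tested, deviations within this group and within control moved with gene length. Genes of up to 1000 bases had a median deviation from the group mean of -0.18 in LPS + G-CDs replicate 1 and 0.23 in replicate 3, and genes over 5000 bases 0.19 and -0.19. In control, on which both comparisons with untreated cells rest, these medians were -0.07 and 0.14 for the shorter genes and 0.08 and -0.15 for the longer ones. In the LPS libraries they lay between -0.02 and 0.02. Members of up to 1000 bases went the other way in the LPS + G-CDs group, with 0.22 and -0.11, and members over 5000 bases had 0.19 and -0.14. Apart from a fit with the length trend removed, the part of this spread in the differences was not tested for single members. With the length trend removed from every library, 35 members rose and 18 fell for LPS against control, beside 2180 and 2080 of all genes. For LPS + G-CDs against control, 34 rose and 26 fell, beside 1785 and 1733 of all genes. For LPS + G-CDs against LPS, 2 rose and 0 fell, beside 39 and 53 of all genes. In the main fit all genes gave 1827 rises and 1803 falls, 1488 and 1439, and 29 and 28, in the same order. Without replicate 1 of the LPS + G-CDs group and with the trend kept, 2 members rose and 4 fell in this last comparison. Calls became more frequent among all genes too, with 113 rises and 163 falls.

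**Figure D3:**
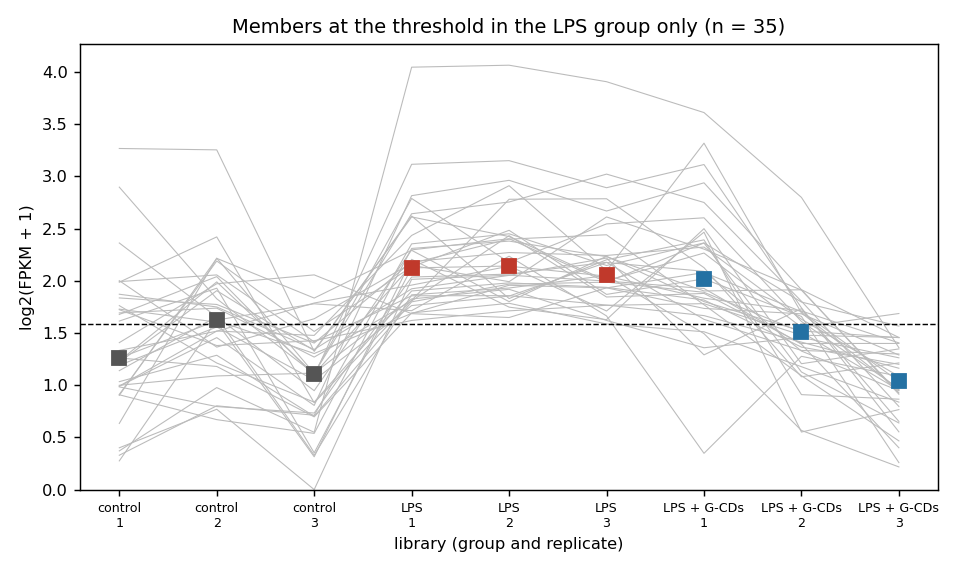
Level on log2(FPKM + 1) (vertical axis) of the 35 members at the threshold in the LPS group only, in each library (horizontal axis), with a gray line per member, a square for the median and a dashed line at an FPKM of 2. The medians lay at 3.14 to 3.41 FPKM in LPS and at 3.05, 1.84 and 1.05 in the LPS + G-CDs libraries.

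The third comparison set LPS + G-CDs against control, with the control libraries shared with the first. Of 180 members read, 34 rose and 20 fell at an adjusted p under 0.05, where 12.8% of all genes rose and 12.4% fell, and 15.0% and 11.9% of the protein-coding genes chosen by the same rule. Of the 101 members at the threshold in all groups, 13 rose and 15 fell. With TPM, under which the median of all genes was -0.38, 25 rose and 43 fell. All genes shifted too, from 1488 rises and 1439 falls to 761 and 3218. Mir155hg led the rises with 4.48 (limma adjusted p = 1.4e-06), followed by Gm13822 with 2.66, Gm20559 with 2.48, Gm35037 with 2.22, Ptgs2os2 with 2.15, Mir22hg with 2.07, Gm41361 with 1.98 and Gm28913 with 1.96. Gm13822 was at 22.4, 34.3 and 56.6 with G-CDs, beside 395, 423 and 482 for Oasl1, whose exons overlap it. Gm28913, at 11.2, 5.95 and 1.56, had an SE of 0.47, against 0.32 for Gm13822, and its call was lost without control replicate 1 or LPS + G-CDs replicate 2, with an adjusted p of up to 0.057 (limma). The falls were led by 2210408F21Rik with -1.27 (limma adjusted p = 0.0017), Gm28875 with -1.23, Ifi30 with -1.12, Lsmem2 with -1.11 and AU020206 with -1.04. The call of Lsmem2, which RefSeq types as protein-coding, was lost in 8 of 20 alternatives, with no filter, with the 6 libraries alone and without control replicate 1 or 2, LPS replicate 1 or 3 or LPS + G-CDs replicate 2 or 3, with an adjusted p of up to 0.13 (limma). That of Gm28875 was lost in 5, with no filter, with the 6 libraries alone and without control replicate 1 or 3 or LPS + G-CDs replicate 2, with an adjusted p of up to 0.073 (limma). F730043M19Rik, whose start lies 96 bases from that of Atxn7l1, went from 5.09, 5.64 and 4.28 in control to 2.52, 1.93 and 2.32, a difference of -0.88 (limma adjusted p = 0.0012). Tmem250-ps and Gm30934 had called differences of -0.87 and -0.79, and the call of Gm30934 was lost with no filter, with the 6 libraries alone and without LPS + G-CDs replicate 2, with an adjusted p of up to 0.074 (limma).

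In this comparison 1 small nucleolar RNA host was called, Snhg5, which fell by 0.76 (limma adjusted p = 0.023). Mir17hg went from 11.04, 8.85 and 10.6 in control to 7.51, 7.05 and 6.68 with G-CDs and fell by 0.46 (limma adjusted p = 0.017), so that 2 of the 4 microRNA hosts rose and 1 fell, where 12.8% of all genes rose and 12.4% fell. Neat1 fell by 0.70 (limma adjusted p = 0.018), and Crnde differed by -0.66 (limma adjusted p = 0.033). Without LPS + G-CDs replicate 2 and with the 6 libraries alone none of these 4 genes was called by limma. The call of Snhg5 was also lost with no filter and without control replicate 1 or 3, that of Neat1 with the length trend removed, and that of Crnde with no filter and without control replicate 1 or 3, any LPS library or LPS + G-CDs replicate 1. Over all alternatives the adjusted p reached 0.075 for Snhg5, 0.11 for Neat1, 0.078 for Mir17hg and 0.11 for Crnde (limma). Of the 2 members at the threshold in LPS + G-CDs only without overlap with control, AC127341.3 was higher by 1.69 and Gm49207 by 0.47. The 18 members at the threshold in control only were all lower with G-CDs, led by Ttc39aos1 with -2.26, Gm11832 with -1.64, Gm45606 with -1.49, Gm11944 with -1.37 and 2310040G24Rik with -1.31.

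Position relative to coding genes was then described for LPS against control. The nearest protein-coding gene was tested for 112 of the 148 members read in this comparison, and the other 36, of which 8 were called, were left out. In the 112 pairs 73 differed in the same direction, and Pearson's r across pairs was 0.561. It was 0.761 over the 43 pairs on opposite strands and 0.469 over the 60 without overlap. Over the members at the threshold in all groups, 43 of 70 pairs differed in the same direction with r of 0.586, and r was 0.61 over the 25 pairs on opposite strands and 0.604 over the 39 without overlap. Pairs share libraries and, where they overlap, possibly reads, and genes are not replicates. Of 44 called members in these pairs, the neighbor was called in the same direction for 27, not called for 16 and called in the opposite direction for 1, AU020206 beside Akap13, where 15.8% of all genes tested rose and 15.6% fell. Over the members at the threshold in all groups these counts were 13, 10 and 1 of 24. Whether the same direction was more frequent in these pairs than in other pairs of genes was not tested. Mir155hg was 1 of the 16, with Mrpl39, a mitochondrial ribosomal protein gene 2331 bases away, at 0.55, and 2210408F21Rik was another. For LPS + G-CDs against LPS, 66 of 123 pairs differed in the same direction, with r near 0 (0.00057).

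**Figure D4:**
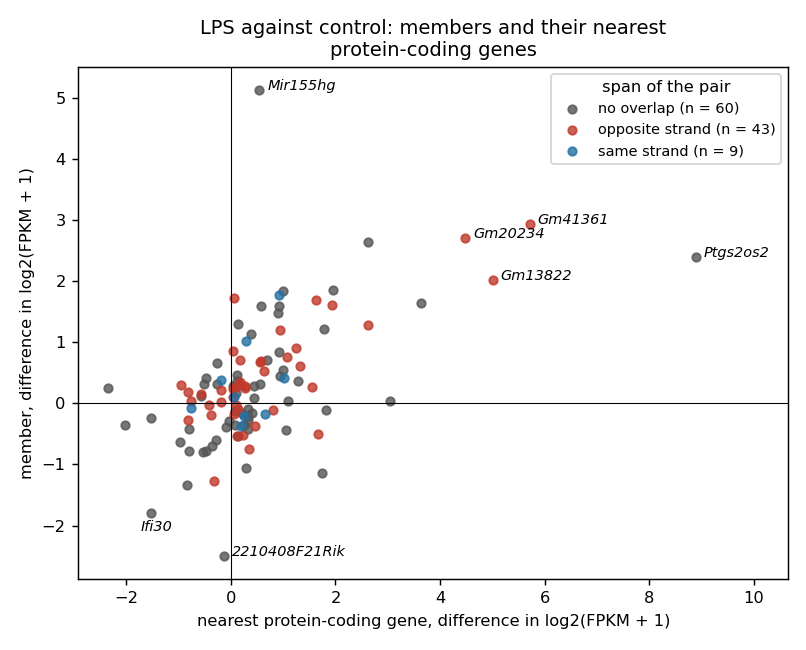
Difference in log2(FPKM + 1) for LPS against control of the 112 members (vertical axis) whose nearest protein-coding gene was tested and of that gene (horizontal axis), colored by whether the pair overlaps and on which strand. Gm41361, Gm20234, Gm13822 and Ptgs2os2 lay at the upper right, each with a neighbor that rose by over 4, while the neighbors of Mir155hg and 2210408F21Rik were at 0.55 and -0.13.

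Types of noncoding gene were counted in the same way for LPS against control, where 15.8% of all genes rose and 15.6% fell. Of 35 antisense members read, 15 rose and 3 fell, of 67 lincRNA members 12 rose and 10 fell, and of 38 processed transcripts 6 rose and 5 fell. Among the members at the threshold in all groups, 7 of 20 antisense members rose and 2 fell, 6 of 47 lincRNA members rose and 10 fell, and 2 of 30 processed transcripts rose and 4 fell. None of the 5 sense intronic members read was called by limma at an adjusted p under 0.05, and 0 of them had an unadjusted p under 0.05. Among members that overlap no coding gene 17 of 89 rose and 15 fell, and among those opposite a coding gene 14 of 47 rose and 4 fell. At the threshold in all groups these were 8 of 63 with 13 falls and 5 of 29 with 3 falls. The differences between these types were not tested.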

How the data were processed

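Poly(A) RNA of RAW264.7 cells was sequenced on an Illumina instrument and the authors deposited FPKM per gene and library. GRCm38 is named in the submitters' processing notes, and the aligner and the counter are not given in the sources used here. Members, gene lists and the naming rule were chosen with earlier results of these data known. Named genes were the 12 highest members, up to 8 called rises and falls per comparison without overlap, up to 5 per direction among members described without a test, list members and nearest coding genes. The 11585 genes that reached an FPKM of 1 in 3 or more libraries were fitted on log2(FPKM + 1), a scale that understates the change of low genes, with limma 3.58.1 in R 4.3.3 (1 model, mean-variance trend, two-sided). FPKM times length gave whole reads, within 0.05, for 100% of values. The library size behind FPKM was 1.11 to 1.14 times the reads on genes in control, 0.929 to 0.936 in LPS and 0.880 to 0.980 in LPS + G-CDs. Within-group deviations of control and LPS libraries of the same number correlated at 0.103, 0.137 and 0.113, over a limit of 0.1. LPS + G-CDs replicate 1 and control replicate 2, of different numbers, correlated at 0.504. The labels do not say that libraries of a number share a culture, and the main fit did not pair them. Coordinates equaled those of GENCODE mouse release M21 for 199 members. Tables were made in Python 3.11.15 (pandas 2.3.3).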

Additional observations from a re-analysis of the deposited data

How the results depend on the processing

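Depth limits the fold changes of Gm41361, Gm20234 and Gm28913, which had 1 to 6 reads in each control library. For 77 fold changes, those named that were called or passed the paper's threshold with their called neighbors, directions held in every alternative run, and of 1539 values 1456 kept their side of the threshold, 78 lost it and 5 passed it. The fold change moved by over 1.5 times for 11 of them with 0.1 added to FPKM, 11 with TPM, 13 with voom and 1 with the reads on genes as library size, and for 0 in the other alternatives. For LPS against control, the members raised (33) were 20 with a member threshold of FPKM 5 and 17 without members that overlap a coding gene, and those lowered (19) were 31 with TPM scaling, 35 with the reads on genes as library size, 33 with voom and 9 at FPKM 5. Among all genes, falls in this comparison went from 1803 to 3059, 3133 and 3124 with TPM, the reads on genes and voom. Leaving out 1 library gave 25 to 38 members raised and 14 to 22 lowered. For LPS + G-CDs against LPS, the members raised (2) were 1 without a filter, with TPM and with the 6 libraries alone. They were also 1 with voom and at FPKM 5, and 0 to 2 with 1 library left out. Those lowered (0) were 0 to 4 with 1 library left out. They reached 1 without control replicate 1 and 4 without LPS + G-CDs replicate 1. Among all genes, rises and falls in this comparison went from 29 and 28 to 113 and 163 without LPS + G-CDs replicate 1. For LPS + G-CDs against control, the raised (34) were 20 at FPKM 5 and 20 without members that overlap a coding gene, and 27 to 36 with 1 library left out, and the lowered (20) were 12 without a filter, 43 with TPM, 36 with the reads on genes as library size, 36 with voom, 9 with the 6 libraries alone, 8 at FPKM 5 and 9 to 23 with 1 library left out, with 9 without LPS + G-CDs replicate 2. Among all genes, falls in this comparison went from 1439 to 3218, 2489 and 2545 with TPM, the reads on genes and voom. They were 858 with the 6 libraries alone and 900 without LPS + G-CDs replicate 2. The set itself held 544 genes with TPM, 373 at FPKM 1 and 92 at FPKM 5. FPKM summed to 271284 to 472870 per library, below the total that TPM sets, so TPM raised every value. A TPM of 2 is thus a lower bar than an FPKM of 2, and an added 1 weighs less. Apart from the members removed in the narrower sets and the lower bar with TPM, the cause was not tested. Leaving out members that RefSeq types as protein-coding, or those that share over 10% of their words with other genes, both added after seeing the data, moved no count by over 1.5 times. With a replicate block, 36 members rose and 22 fell for LPS against control, 2 and 0 for LPS + G-CDs against LPS and 36 and 24 for LPS + G-CDs against control, and the block changed 1 named call, that of Atxn7l1. For the last 2 comparisons not every same-numbered pair correlated over 0.1, and in no comparison do the labels say that such libraries share more than a number.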
